A study of Triticum aestivum with 20 samples.

Results

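The switch described here is the step from 2.5 mm to 3.0 mm in control anthers of the wheat line BS366, a temperature-sensitive genic male sterile line that is fertile under control conditions. Its members are the 4 control arrays of these stages out of 20 arrays in all, defined by their labels. For each stage there is 1 array at 20 °C with 12 h of light and 1 at 20 °C with 14 h of light. The step was chosen with earlier results of these data known, so its size beside other steps and arrays describes it and adds no support. The 3.0 mm array of a photoperiod was set against the 2.5 mm array of the same photoperiod, so that the step was measured in 2 pairs.

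Plants were vernalized in the field, and according to the labels they stayed for 5 days under their temperature and photoperiod before a return to 20 °C with 12 h of light. Anthers of 5 lengths (1.5, 2.0, 2.2, 2.5 and 3.0 mm) give the stages their names, and RNA of each was hybridized to Affymetrix Wheat Genome arrays. All plants were BS366, so the control anthers are those of a sterile line kept at its fertile temperature and not of another variety. Of the other arrays, 6 are control anthers of the 3 earlier stages and 10 are cold anthers of the 5 stages, from plants at 10 °C with 12 h or 14 h of light. There is 1 array for each temperature, photoperiod and stage. The labels name no separate culture or pool behind an array, and the arrays of both photoperiods served as replicates, so the p-values measure only the spread between these arrays.

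A wheat anther holds pollen mother cells that undergo meiosis and give rise to microspores, which enlarge, form a vacuole, divide and fill with reserves. The innermost layer of the anther wall, the tapetum, feeds the microspores and supplies lipids and proteins for the pollen wall before it degenerates. Anther length is used as an outward sign of these stages, which follow each other quickly, and the whole anther is a mixture of wall, tapetum and pollen cells. In such bulk samples, fewer cells of a type and less RNA per cell cannot be told apart.

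A probe set is a group of short probes that report on a transcript, and its level is given on the log2 scale as deposited, so that a difference of 1 is a 2-fold change. A probe set entered the tests if, for some temperature and stage, both arrays put it above their 60th percentile, which held for 13805 of 28894. It was called at an adjusted p under 0.05 from limma and a change of at least 2-fold. Levels of different probe sets are not compared with each other, because probes differ in brightness. The medians of the 4 arrays lay close together, at 6.42 and 6.38 at 2.5 mm and at 6.32 and 6.28 at 3.0 mm, and those of all 20 arrays lay between 6.14 and 6.46.

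From 2.5 mm to 3.0 mm, 2847 probe sets were called, 20.6% of those tested. Of these, 1130 rose (8.19% of those tested) and 1717 fell (12.4%). The median change was 1.82 among those that rose and −1.99 among those that fell, beside −0.0432 over all probe sets tested. At least 4-fold changes were found in 499 that rose and 853 that fell, at least 16-fold changes in 175 and 250, and at least 256-fold changes in 25 and 32. The probe sets that fell outnumbered those that rose, and made up 60.3% of the calls (55.1% with each array centred on its median and 66.4% without probe sets of equal values on several arrays). Many of the probe sets that rose came in through the later stage: 498 of the 1130 (44.1%) passed the 60th percentile on both arrays in control anthers of 3.0 mm and in no other group, a filter that favours a rise. Without this filter, 1586 of all 28894 probe sets rose (5.49%) and 2159 fell (7.47%).

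No other step between successive control stages held as many calls. From 1.5 mm to 2.0 mm, 2 probe sets were called (0.0145% of those tested), both lower (Ta.3079.1.S1_x_at and Ta.6075.1.A1_at, without a gene name here), and the latter rose by 4.02 at the last step. From 2.0 mm to 2.2 mm, 507 were called (3.67%), with 395 higher (2.86%) and 112 lower (0.811%). From 2.2 mm to 2.5 mm, 0 were called (0%) with limma, although 1601 had an unadjusted p under 0.05. At the step from 2.5 mm to 3.0 mm the unadjusted count was 5634. The median absolute change was 0.192, 0.324 and 0.225 at the 3 earlier steps and 0.411 at the last. These steps share the arrays of the stage between them, and the number of calls was not itself compared by a test. The count of 0 from 2.2 mm to 2.5 mm depended on the fit. It was 9 with all 20 arrays in the fit and 1 without the filter on dim probe sets. Without the 12 h array of 2.5 mm it was higher as well, in a fit that takes the lone array left to vary like the others.

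**Figure D1:**
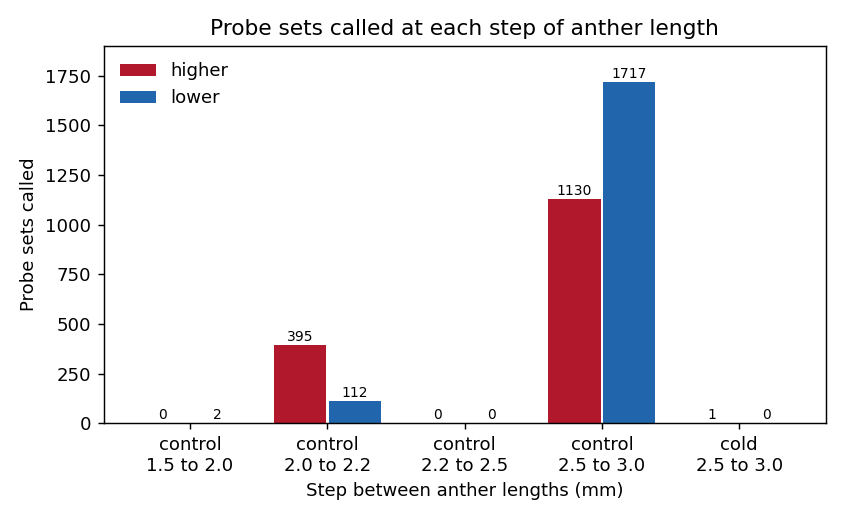
Number of probe sets called higher (red) and lower (blue) at each step of anther length, for the 4 control steps and for the cold step from 2.5 mm to 3.0 mm. The last control step, with 1130 higher and 1717 lower, stands above the 395 and 112 of the control step from 2.0 mm to 2.2 mm, and the cold step has 1 call.

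Both photoperiods gave the step. A change of at least 2-fold was found in 3584 probe sets in the 12 h pair and in 3119 in the 14 h pair, and 2452 changed 2-fold in the same direction in both, which is 68.4% of the former and 78.6% of the latter. Of these, 930 were higher (6.74% of those tested) and 1522 lower (11%). Only 23 changed 2-fold in opposite directions. All 2847 probe sets called had the same sign in both pairs, and 2359 of them were at least 2-fold in each pair. Across probe sets, which are not independent replicates, the changes of both pairs correlated at r = 0.875.

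**Figure D2:**
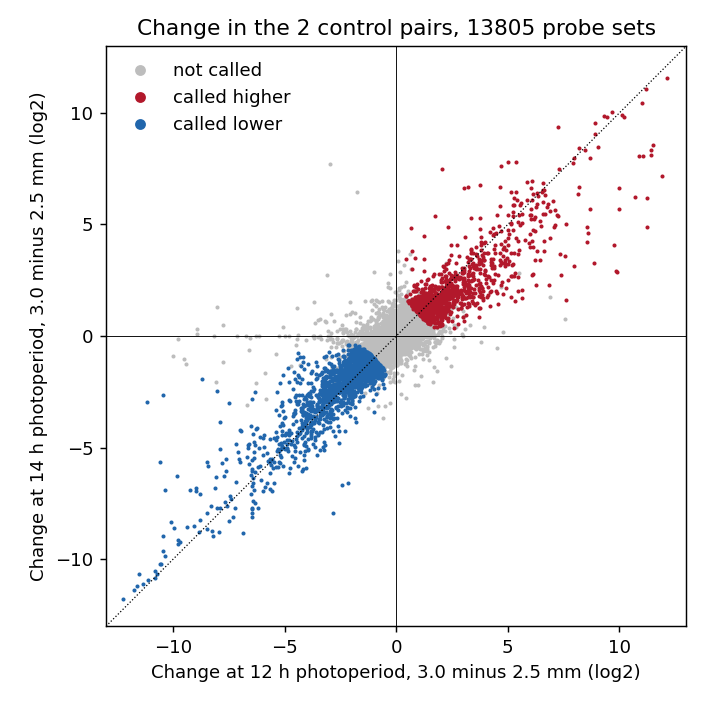
Change from 2.5 mm to 3.0 mm in the 12 h pair (x axis, log2) and in the 14 h pair (y axis, log2) for each of 13805 probe sets, with those called higher in red, those called lower in blue and the rest in grey; the dotted line marks equal change. All 2847 probe sets called lie in the quadrants of equal sign, and their changes reach to about the same size in both pairs.

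The step was somewhat larger at 12 h of light than at 14 h, and the arrays of 2.5 mm differed more than those of 3.0 mm. Among probe sets that rose, the median change was 2.01 in the 12 h pair and 1.69 in the 14 h pair, and among those that fell it was −2.12 and −1.87. At 2.5 mm, 775 of the probe sets that rose were higher at 14 h and 337 lower, with a median difference of 0.315. Of those that fell, 1050 were lower at 14 h and 663 higher, with a median difference of −0.183. At 3.0 mm these counts were 583 and 547, and 829 and 854. Over all probe sets tested, the arrays of both photoperiods were at least 2-fold apart in 448, 569, 1078, 1344 and 510 from 1.5 mm to 3.0 mm. For these probe sets the 14 h array of 2.5 mm lay nearer to 3.0 mm than the 12 h array, a difference between 2 single arrays for which no test of photoperiod at that stage is possible.

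Over the whole course, the median level of the probe sets that rose stayed between 6.85 and 7.04 on the control arrays up to 2.2 mm, was 6.93 at 12 h and 7.35 at 14 h at 2.5 mm, and was 9.25 and 9.39 at 3.0 mm. The median of those that fell climbed first, from 8.41 and 8.31 at 1.5 mm to 9.09 and 8.87 at 2.5 mm, and then dropped to 6.55 and 6.60. The values at 2.5 mm and 3.0 mm are those by which these probe sets were picked, and only the others add to the picture.

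**Figure D3:**
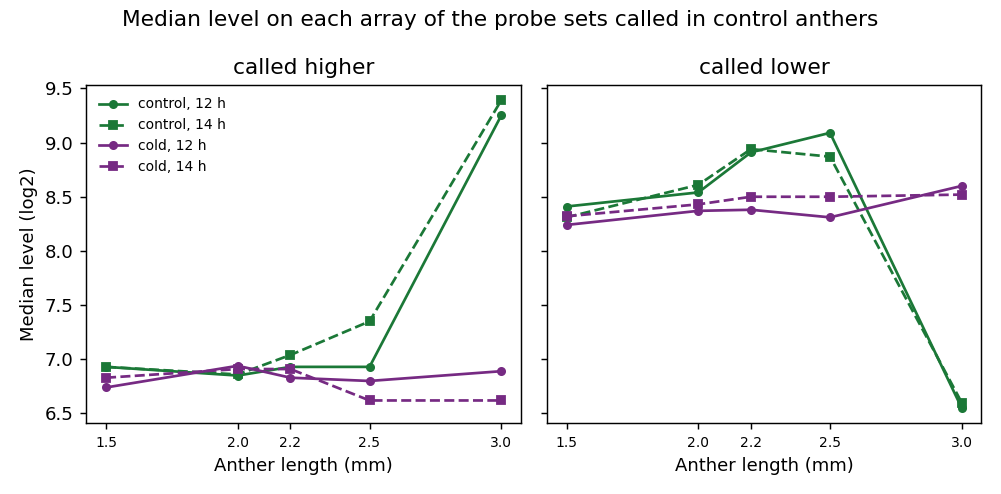
Median level (log2) on each array of the 1130 probe sets called higher (left) and the 1717 called lower (right) against anther length (mm), for control (green) and cold (purple) anthers with 12 h (circles, solid line) and 14 h (squares, dashed line) of light. The control lines lie farthest from the cold lines at 3.0 mm, at 9.25 and 9.39 in the left panel and at 6.55 and 6.60 in the right panel.

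Levels at 3.0 mm were set against those of the youngest anthers to see whether the step went back to an earlier state. Of the 1130 probe sets that rose, 926 were at least 2-fold above the mean of 1.5 mm at 3.0 mm, 196 lay within 2-fold of it and 8 were at least 2-fold below. Of the 1717 that fell, 1143 were at least 2-fold below the mean of 1.5 mm, 511 lay within 2-fold and 63 were still above it. The levels of 3.0 mm are among those by which these probe sets were picked. At 2.5 mm, 709 of the 1130 and 890 of the 1717 lay within 2-fold of 1.5 mm. A level at 3.0 mm away from that of 1.5 mm is thus largely given by the choice, and the counts only describe these probe sets. At 2.5 mm, 560 of those that fell had been at least 2-fold above 1.5 mm and 267 at least 2-fold below.

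The step from 2.0 mm to 2.2 mm rests on other arrays of the same fit. Of the 395 probe sets called higher there, 181 (45.8%) fell from 2.5 mm to 3.0 mm and 60 (15.2%) rose further, beside 12.4% and 8.19% over all probe sets tested. These 181 were 10.5% of all that fell at the last step, and the 60 were 5.31% of all that rose. Of the 112 called lower from 2.0 mm to 2.2 mm, 15 (13.4%) fell again and 11 (9.82%) rose, both near those shares. The count of 181 is that of probe sets called lower and not of all that were lower at 3.0 mm. The median change of the 395 from 2.5 mm to 3.0 mm was −0.911. Of the 395, 154 were not called in either direction at the last step. Both steps share the spread of the fit, which favours calls at both.

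A smaller set went between dim and bright. Dim here means below the 40th percentile of the array on both arrays of a stage, and bright means above the 60th, which at 2.5 mm were 5.59 and 7.21 at 12 h and 5.54 and 7.17 at 14 h. Of the 1130 that rose, 158 (14%) went from dim at 2.5 mm to bright at 3.0 mm, and 127 of these had also been dim at all 3 earlier control stages. Of the 1717 that fell, 239 (13.9%) went from bright to dim. Of those 239, 116 had been bright at all 3 earlier stages and 21 had been dim at 1.5 mm and 2.0 mm. The 127 describe these onsets only, since the share dim at all earlier stages among all probe sets dim at 2.5 mm was not counted. The losses included both long-lived and short-lived signals.

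The 3 largest rises went from near the lowest value of the arrays, 2.28, to among their brightest levels. Ta.11808.1.S1_s_at measured 2.28 and 2.70 at 2.5 mm and 14.43 and 14.24 at 3.0 mm (12 h and 14 h in this order, here and below), a change of 11.85 (SE 0.36, adjusted p = 3.12e-06 from limma). TaAffx.87253.3.S1_at was at 2.28 on both arrays of 2.5 mm and at 13.49 and 13.35 at 3.0 mm, a change of 11.14 (SE 0.38, adjusted p = 4.13e-06 from limma). Its highest level on any other control or cold array was 2.36, so only control anthers of 3.0 mm gave a signal above the bottom of the scale. Ta.3812.3.S1_at rose from 2.31 on both arrays to 13.32 and 12.74 (change 10.72, SE 0.40, adjusted p = 6.1e-06 from limma). Ta.11808.1.S1_s_at alone of the 3 was clearly above this bottom elsewhere, with 5.86 on both cold arrays of 1.5 mm and 5.03 and 4.76 on the 12 h cold arrays of 2.2 mm and 2.5 mm. These probe sets carry no gene name here. TaAffx.87253.3.S1_at and Ta.3812.3.S1_at had an equal value on 13 and on 12 arrays, which can understate their spread. All 3 had passed the filter only through control anthers of 3.0 mm, where they are high, so their adjusted p adds no support. Their changes depend on where the scale ends: once values under the 40th percentile of each array had been set to it, they were 8.77, 7.85 and 7.46 in this order.

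The 3 largest falls were of signals that were bright on both control arrays of 2.2 mm and 2.5 mm and ended at or near the bottom of the scale. Ta.11769.2.S1_at had been bright from the start, at 11.74 and 8.98 at 1.5 mm. It measured 14.53 and 14.16 at 2.5 mm and 2.28 and 2.40 at 3.0 mm, a change of −12.00 (SE 0.98, adjusted p = 0.000137 from limma). TaAffx.59835.1.S1_x_at was at 2.33 and 2.28 at 1.5 mm, at 2.33 and 11.66 at 2.0 mm and at 13.95 and 13.92 at 2.2 mm. It was still at 14.07 and 13.70 at 2.5 mm and was at 2.33 on both arrays of 3.0 mm. At 2.0 mm it was thus high on the 14 h array and at the bottom of the scale on the 12 h array. This is a difference between 2 single arrays, for which no test of photoperiod is possible. It put a wide spread into the fit of this probe set (change −11.55, SE 2.21, adjusted p = 0.00681 from limma). TaAffx.93253.1.A1_at was at 9.96 and 2.42 at 1.5 mm. It measured 14.02 and 13.61 at 2.5 mm and 2.42 on both arrays of 3.0 mm (change −11.39, SE 2.13, adjusted p = 0.00612 from limma). The call of TaAffx.59835.1.S1_x_at was lost without the 12 h array of 2.5 mm (adjusted p = 0.0566) and without the 14 h array of 3.0 mm (0.0651), and that of TaAffx.93253.1.A1_at without the 12 h array of 3.0 mm (0.0559). These falls, too, depend on where the scale ends, and with raised values they were −8.90, −8.44 and −8.37 in the order above. In cold anthers of 3.0 mm the same 3 probe sets were high, at 13.78 and 14.11, at 12.46 and 12.62 and at 13.06 and 13.30.

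**Figure D4:**
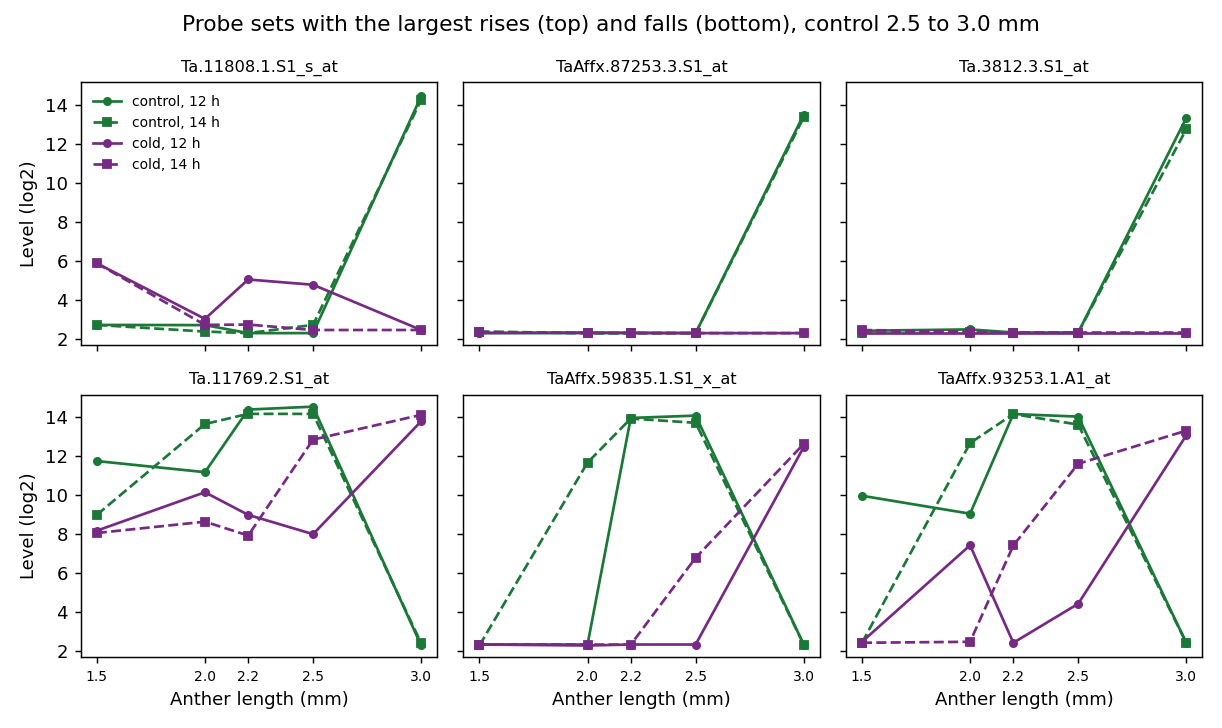
Level (log2) against anther length (mm) of the 3 probe sets with the largest rise (top row) and the 3 with the largest fall (bottom row) from 2.5 mm to 3.0 mm, on control (green) and cold (purple) arrays with 12 h (circles, solid line) and 14 h (squares, dashed line) of light. The top row leaves the bottom of the scale at control 3.0 mm, and the bottom row, high at control 2.2 mm and 2.5 mm, is at 2.28 to 2.42 at control 3.0 mm and at 12.46 to 14.11 at cold 3.0 mm.

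Gene names were at hand for few of the changed probe sets, 13 of those that rose and 25 of those that fell, so the named genes are a small sample of the step. The table of gene IDs paired 845 probe sets with a gene, and 115 of these had a name other than a locus number. The 26 auxin probe sets come from a list that the study chose on these same arrays, so their direction is not independent evidence. Of 20 further lists by gene name, 12 had a probe set on the arrays.

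Genes of the auxin response were among the largest named rises. Of the 26 auxin probe sets on the arrays, 16 passed the filter on dim probe sets. Of these 7 rose and 0 fell, where 8.19% of all probe sets tested rose, but 6 of the 7 had passed it only through control anthers of 3.0 mm, where they are high. Without the filter, 11 of the 26 rose and 1 fell, where 5.49% of all probe sets rose and 7.47% fell. The median change of the 26 was 0.868 beside −0.00408 over all probe sets. Aux/IAA proteins are short-lived repressors that bind auxin response factors, and auxin triggers their breakdown. The 3 Aux/IAA probe sets tested rose, and IAA12 and IAA14 were among those that passed the filter only at 3.0 mm. IAA15 (Ta.10032.1.S1_a_at) measured 7.59 and 7.76 at 2.5 mm and 12.02 and 11.48 at 3.0 mm, with no overlap between the stages. Here and below, a lack of overlap is likely for any probe set called, so it adds no support. The change of IAA15 was 4.07 (SE 0.23, adjusted p = 3.18e-05 from limma), after levels of 8.67 and 9.03 at 1.5 mm. IAA12 (Ta.7905.1.S1_a_at) rose from 2.29 and 4.32 to 7.24 and 7.80 (change 4.22, SE 0.71, adjusted p = 0.00388 from limma). IAA14 (TaAffx.78729.2.S1_at) rose from 3.67 and 4.19 to 7.56 and 7.73 (change 3.72, SE 0.41, adjusted p = 0.000536 from limma). Both were at the level of dim probe sets on every earlier control array, whereas IAA15 was not. These IAA12 and IAA14 probe sets had an equal value on 14 and on 8 arrays, which can understate their spread. The other 3 Aux/IAA probe sets were too dim to be tested with the rest, and in a test of all 28894 probe sets that of IAA18 (Ta.9390.1.A1_at) changed by −0.45 (adjusted p = 0.729 from limma), while those of IAA12 (TaAffx.128812.1.S1_at) and IAA14 (TaAffx.78729.1.S1_x_at) had changes of 3.67 and 2.24 (adjusted p = 0.00108 and 0.00156).

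The 3 tested probe sets named auxin-induced protein 5NG4 also rose, and each had passed the filter only through control anthers of 3.0 mm. Without the filter, 4 of the 5 probe sets of this name rose and 0 fell, where 5.49% of all probe sets rose and 7.47% fell. This name comes from an auxin-induced gene of pine, and its Arabidopsis relatives are membrane proteins that include an auxin transporter of the vacuole. Ta.5650.2.S1_x_at measured 3.32 and 7.78 at 2.5 mm and 10.69 and 10.50 at 3.0 mm. Ta.5650.1.S1_a_at measured 5.14 and 8.14, then 10.40 and 10.85, and Ta.5650.3.S1_x_at 2.33 and 4.90, then 8.53 and 8.32. In each of them the 14 h array of 2.5 mm was already above the 12 h array, and both were below the arrays of 3.0 mm. The changes were 5.04 (SE 1.15), 3.99 (SE 0.92) and 4.82 (SE 0.77), with adjusted p = 0.0147, 0.0156 and 0.00312 from limma. The first 2 calls were lost without the 12 h array of 2.5 mm (adjusted p = 0.0747 and 0.112) or the 12 h array of 3.0 mm (0.124 and 0.126). Ta.5650.3.S1_x_at had an equal value on 14 arrays, which can understate its spread. The 3 probe sets share a name root, and transcripts of near-identical copies cannot be told apart on them.

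Auxin response factors, the transcription factors that Aux/IAA proteins hold back, mostly did not pass the test. Of 6 tested, 1 rose and 0 fell, where 8.19% of all probe sets tested rose and 12.4% fell. The factor that rose was a B3-domain factor (Ta.4027.1.A1_at), which had passed the filter only at 3.0 mm, at 5.52 and 5.49 at 2.5 mm and at 9.33 and 9.60 at 3.0 mm (change 3.96, SE 0.42, adjusted p = 0.000444 from limma). The 2 probe sets of auxin response factor 5 measured 5.68 and 7.32 (Ta.28513.1.S1_s_at) and 5.28 and 7.20 (Ta.6746.1.S1_at) at 2.5 mm. At 3.0 mm they measured 7.44 and 7.07, and 7.17 and 7.28, so that they differed between the stages at 12 h but hardly at 14 h (adjusted p = 0.309 and 0.175 from limma). The change of the others lay between −0.45 and 0.59. Without the filter, 2 of 11 probe sets rose and 1 fell, where 5.49% of all probe sets rose and 7.47% fell. The other one that rose was auxin response factor 4 (TaAffx.51314.1.S1_at, change 1.42, adjusted p = 0.0179 from limma), and the one that fell was another B3-domain factor (Ta.9707.1.S1_at), from 6.05 and 5.85 to 4.59 and 4.58 (change −1.37, adjusted p = 0.00365 from limma). The 3 probe sets of auxin-repressed proteins did not pass the test either, with a median change of 0.0239.

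Besides these, LTP3, COMT1, GAPN, GSTZ1 and Tubb4 were the named genes that rose. LTP3, a lipid transfer protein gene, was at 2.51 on all control arrays of 1.5 mm and 2.0 mm and at 3.73 and 5.28 at 2.2 mm. It measured 3.92 and 7.24 at 2.5 mm and 10.79 and 11.65 at 3.0 mm, a change of 5.64 (SE 0.77, adjusted p = 0.00148 from limma). COMT1, which encodes caffeic acid O-methyltransferase of the lignin pathway, rose from 9.01 and 10.11 to 12.75 and 12.49 (change 3.06, SE 0.34, adjusted p = 0.000536 from limma). GAPN, the gene of a non-phosphorylating glyceraldehyde-3-phosphate dehydrogenase, rose from 6.34 and 7.99 to 10.10 and 9.97 (change 2.87, SE 0.51, adjusted p = 0.00487 from limma). In each of the 3 genes the arrays of 2.5 mm and 3.0 mm did not overlap, and that of 14 h was the higher one at 2.5 mm. LTP3 and GAPN had passed the filter only through control anthers of 3.0 mm. They had an equal value on 12 and on 6 arrays, which can understate their spread. Without the 12 h array of 3.0 mm the adjusted p of GAPN was 0.0508.

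GSTZ1, a glutathione transferase of the zeta class, rose on both of its probe sets. Ta.237.1.S1_a_at measured 6.06 and 7.56 at 2.5 mm and 8.80 and 9.51 at 3.0 mm (change 2.34, SE 0.41, adjusted p = 0.00459 from limma). TaAffx.56524.1.S1_at measured 6.66 and 7.32, then 8.00 and 8.16 (change 1.09, SE 0.25, adjusted p = 0.0147 from limma). The call of the latter was lost without the 12 h array of 2.5 mm (adjusted p = 0.106) and without either array of 3.0 mm (0.105 and 0.0628).

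Histone genes fell together. Histones H2A and H2B package newly made DNA, and their transcripts are high in dividing cells. Of 17 histone probe sets tested, 15 fell and 0 rose, where 12.4% of all probe sets tested fell, and the median change was −1.55. Without the filter on dim probe sets, 10 of 18 fell and 0 rose, where 7.47% of all probe sets fell. The probe sets of a histone overlap in sequence, so they are not 17 separate genes. The strongest fall was that of H2A-9 (Ta.27657.14.S1_s_at), from 11.30 and 10.57 to 9.13 and 8.12 (change −2.31, SE 0.33, adjusted p = 0.00187 from limma). H2A-2 (Ta.29542.1.S1_x_at) fell from 8.56 and 9.04 to 6.28 and 7.07 (change −2.12, SE 0.26, adjusted p = 0.000817 from limma). The H2B gene wcH2B-8 (Ta.7378.17.S1_x_at) fell from 9.01 and 7.85 to 6.85 and 5.81 (change −2.10, SE 0.36, adjusted p = 0.00427 from limma). The 2 probe sets that did not pass the test are those of wcH2B-6, with changes of −0.74 and −0.75 (adjusted p = 0.0843 and 0.0979 from limma). Among the named histone probe sets, the calls of H2A-9 (Ta.27657.12.S1_at) and wcH2B-8 (Ta.7378.1.S1_at) were lost without the 12 h array of 2.5 mm (adjusted p = 0.113 and 0.172) or the 14 h array of 3.0 mm (0.13 and 0.187).

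Histone levels at 2.5 mm were already below those of the youngest anthers. Their median level on the control arrays was 11.49 and 12.08 at 1.5 mm, 11.79 and 11.70 at 2.0 mm, 10.75 and 11.06 at 2.2 mm, 10.49 and 9.60 at 2.5 mm and 9.10 and 8.41 at 3.0 mm. No histone probe set was called at a single earlier step, although the median change from 2.0 mm to 2.2 mm was −0.831 and that from 2.2 mm to 2.5 mm was −0.716. The summed level of the 17 probe sets, as log2, was 15.14 and 14.39 at 2.5 mm and 13.59 and 13.01 at 3.0 mm. As markers of dividing cells they moved with the step, and the part of the share of such cells in the other results was not tested. Of 9 tubulin probe sets tested, for the subunits of the microtubules, 1 rose and 0 fell, close to the 8.19% that rose over all probe sets tested. It was Tubb4, at 9.45 and 8.98, then 10.38 and 10.15 (change 1.05, SE 0.19, adjusted p = 0.00545 from limma). Its change was 0.91, under 2-fold, without the 14 h array of 2.5 mm.

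Genes of redox metabolism moved in both directions. Of 7 probe sets tested, 2 rose, both of GSTZ1, and 5 fell, where 8.19% of all probe sets tested rose and 12.4% fell. Their median change was −1.57. They are not 7 separate genes, since GSTZ1 and Prx1 each have more than 1 probe set. Both probe sets of GSTZ1 had passed the filter only through control anthers of 3.0 mm. Without the filter, 2 of 8 rose and 5 fell, where 5.49% of all probe sets rose and 7.47% fell. CAT1, a catalase that breaks down hydrogen peroxide, fell from 7.71 and 7.20 to 5.00 and 4.74 (change −2.59, SE 0.31, adjusted p = 0.000728 from limma). The 3 probe sets of Prx1 fell, with changes of −2.11, −1.68 and −1.57, the first (Ta.6572.1.S1_a_at) from 9.97 and 10.10 to 7.90 and 7.94. Trx-M, a thioredoxin of the chloroplast, fell from 10.44 and 11.10 to 9.50 and 9.75 (change −1.14, SE 0.24, adjusted p = 0.00997 from limma). The levels of 3.0 mm lay below those of 2.5 mm without overlap in each of these probe sets, which is likely for any probe set called lower. On the 14 h array of 1.5 mm, this Prx1 probe set and Trx-M had been at 7.65 and 7.96, lower than at either of the later stages.

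CL9, also named RPL9 for the ribosomal protein L9, had the largest fall among the named genes. It measured 9.62 and 9.36 at 2.5 mm and 4.22 and 5.07 at 3.0 mm, a change of −4.85 (SE 0.34, adjusted p = 6.64e-05 from limma). The other 4 translation probe sets tested did not pass the test and had changes from −0.31 to 0.10, and the median of the 5 was −0.061. AGA.1, a subunit of the ADP-glucose pyrophosphorylase of starch synthesis, fell from 8.37 and 8.21 to 5.57 and 5.93 (change −2.54, SE 0.25, adjusted p = 0.000327 from limma). AGP-S, another subunit of that enzyme, was at 11.01 and 11.05, then at 10.18 and 10.20, a change of −0.83 that was under 2-fold (adjusted p = 0.00277 from limma).

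Several genes with high levels in the anther did not pass the test at this step. The raftin genes, whose proteins pass from the tapetum to the pollen wall and which mark that tissue, were bright on all 4 arrays. The raftin1a probe set Ta.4195.1.S1_at measured 13.65 and 13.39 at 2.5 mm and 14.10 and 13.69 at 3.0 mm (change 0.38, adjusted p = 0.176 from limma). The changes of the 4 raftin probe sets lay between 0.33 and 0.47. The beta-amylase gene amy1 (BMY1) measured 12.20 and 13.83, then 14.20 and 14.65 (change 1.41, SE 0.75, adjusted p = 0.204 from limma). In a fit of only these 4 arrays it passed the test (adjusted p = 0.0397), and its change ran from 0.59 to 2.23 when 1 of them was left out. Of 10 photosynthesis probe sets tested, 0 rose and 1 fell, close to the 12.4% that fell over all probe sets tested, with a median change of −0.19. It was a probe set of rbcL, the large subunit of Rubisco (TaAffx.128896.17.S1_s_at), at 8.99 and 9.81, then 7.81 and 8.75. Its stages did not overlap (change −1.12, SE 0.25, adjusted p = 0.013 from limma), and a brighter probe set of rbcL (Ta.24976.1.S1_x_at) changed by 0.07. The rbcL call was lost without the photoperiod term (adjusted p = 0.15) and without any 1 of the 4 arrays (0.0617 to 0.0964). PRK and FBP, enzymes of the Calvin cycle, measured 11.21 and 12.48, then 12.01 and 12.32, and 8.23 and 9.53, then 9.82 and 9.52 (adjusted p = 0.646 and 0.277 from limma). Thus tapetum and green tissue markers were present at both stages. The list of seed storage names matched no probe set, and a probe set of an avenin-like storage protein gene (ALP), found after its values were seen, measured 11.39 and 11.69, then 11.22 and 11.61 (change −0.13, adjusted p = 0.495 from limma).

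**Figure D5:**
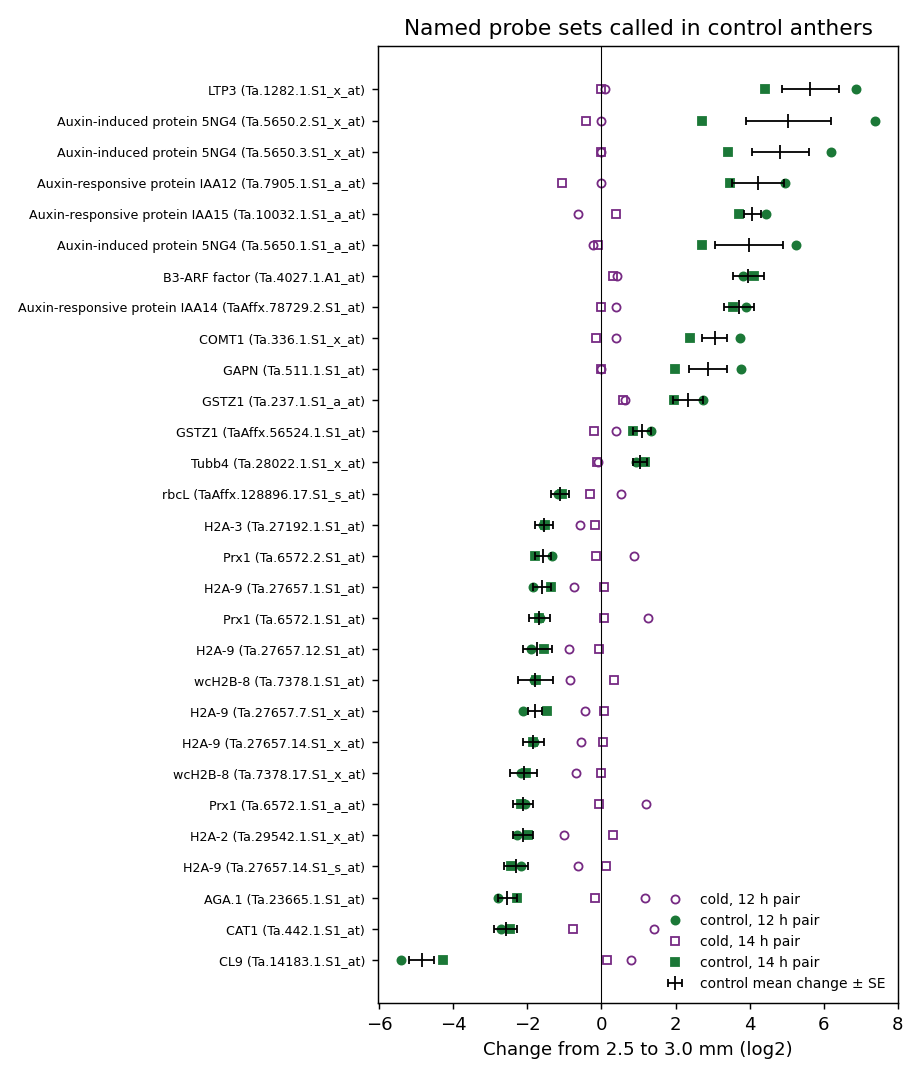
Change from 2.5 mm to 3.0 mm (log2) of the 29 named probe sets called in control anthers, for the control pairs (filled green) and the cold pairs (open purple) with 12 h (circles) and 14 h (squares) of light; the black bar is the control change from limma with its SE. Control changes run from −4.85 for CL9 to 5.64 for LTP3. For the genes that rose, the mean change of the cold pairs runs from −0.53 for IAA12 to 0.61 for GSTZ1 (Ta.237.1.S1_a_at), and single pairs lie farther out.

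Cold anthers of the same lengths did not show this step. From 2.5 mm to 3.0 mm, 1 probe set was called in the cold (0.00724% of those tested), Ta.6665.3.S1_x_at, without a gene name here, and 673 had an unadjusted p under 0.05 with limma. The difference between the control step and the cold step was tested itself, and 2533 probe sets were called (18.3%), with 942 more positive (6.82%) and 1591 more negative (11.5%) in control anthers. Among the 1130 that rose in control anthers the difference was called for 818 (72.4%), and their median change in the cold was 0.0308. Among the 1717 that fell it was called for 1436 (83.6%), with a median cold change of 0.0934. The difference uses the arrays by which these probe sets were picked, so the counts describe them and add no support. Of the 158 probe sets that went from dim to bright in control anthers, 139 were dim and 5 bright on both cold arrays of 3.0 mm. Of the 239 that went from bright to dim, 162 were bright and 22 dim there, and 39 rose at least 2-fold in both cold pairs. At 2.5 mm, 125 of these 239 were bright on both cold arrays. Cold anthers of 3.0 mm therefore lacked most of the onsets and were bright for most of the signals that control anthers had lost, some of which they had already at 2.5 mm and some not.

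Control anthers of 3.0 mm lay outside the range of all 18 other arrays for many probe sets. On both of their arrays, 598 probe sets were at least 1 log2 unit above every other array (4.33% of those tested) and 648 at least 1 below (4.69%). Of all other temperature and stage groups, control anthers of 2.5 mm had the most above, 21, and cold anthers of 1.5 mm the most below, 19. Such probe sets made up 52.6% of those that rose (594) and 37.5% of those that fell (644). Those that rose or fell were picked with the same 3.0 mm arrays, so these shares are partly given by the choice. Of the probe sets tested, 790 had passed the filter only through control anthers of 3.0 mm, which favours the count above. The count outside the other arrays has no test, and with a margin of 2 log2 units it was 273 above and 271 below.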

How the data were processed

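The values deposited by the authors are log2 expression levels, with a column for each array. The submitters' processing notes name MAS5. Its version, its settings and the scaling between arrays are not given in the sources used. In 1564 of the 13805 probe sets tested (11.3%) a value was equal to every stored decimal on 3 or more arrays, which can understate their spread. Such probe sets made up 29.9% of those called higher and 9.09% of those called lower. The values were used unchanged, without 1 reporter control.

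For the control steps, limma 3.58.1 (R 4.3.3) was fitted to the 10 control arrays, with a mean per stage and a photoperiod term (4 residual degrees of freedom), a trend in the moderated variances and Benjamini-Hochberg adjustment over all probe sets tested. The cold step and the difference of both steps came from the 20 arrays with a photoperiod term per temperature (8 residual degrees of freedom). The pairing is that of the photoperiods in the labels. The test was run on simulated data with independent noise and few changed probe sets, which checks the code and not the assumptions of the test. Precision is limited by the number of arrays.

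Named probe sets are up to 15 called per direction with a gene name, the 3 largest changes per direction, up to 4 members per list, the auxin list and a few preset genes. Trx-M, wcH2B-6, a further wcH2B-8 probe set, ALP, the brighter rbcL probe set and the few calls of other steps were named after their values were seen. Names came from RefSeq synonyms (844 of 845 gene IDs matched) and, for auxin, from a table of the study. Members and lists were chosen with earlier results of these data known.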

Additional observations from a re-analysis of the deposited data

Results flagged for a closer look

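The control step and the cold step from 2.5 mm to 3.0 mm differed by the test of the difference itself (limma, fit of all arrays) for 35 of the named probe sets. Over all probe sets tested, the difference was called for 18.3%. Many of the 35 were named for a large control step, which is part of this difference. Some had also passed the filter only through control anthers of 3.0 mm. The calls and their adjusted p therefore describe these probe sets and add no support. The differences, control step minus cold step on the log2 scale, are given here with no explanation.

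Among the probe sets without a gene name, the difference was 13.01 for Ta.11808.1.S1_s_at, 11.14 for TaAffx.87253.3.S1_at and 10.72 for Ta.3812.3.S1_at. It was −15.53 for Ta.11769.2.S1_at, −19.54 for TaAffx.59835.1.S1_x_at and −16.56 for TaAffx.93253.1.A1_at. Levels at the bottom of the scale give these differences no exact size. With values raised to the 40th percentile they were 8.74, 7.82 and 7.43 for the first 3 and −12.42, −14.85 and −13.01 for the latter 3. In these latter 3 the cold step ran the other way, with changes of 3.52, 7.98 and 5.17 that did not pass the test in the cold (adjusted p = 0.967, 0.469 and 1 from limma).

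Among the auxin genes, the difference was 4.20 for IAA15, 4.75 for IAA12, 3.52 for IAA14 and 3.59 for the B3-domain auxin response factor. It was 4.16, 5.27 and 4.82 for the 3 probe sets of 5NG4. Of the other genes that rose, LTP3 differed by 5.59, COMT1 by 2.94, GAPN by 2.87, GSTZ1 (Ta.237.1.S1_a_at) by 1.74 and Tubb4 by 1.16. The tubulin gene tubb2, whose control change of 0.87 was under 2-fold, differed by 1.09.

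Of the genes that fell, CL9 differed by −5.33, AGA.1 by −3.04, CAT1 by −2.92, Trx-M by −1.65 and rbcL by −1.23. The 3 probe sets of Prx1 differed by −2.69, −2.35 and −1.94. Among the histones, H2A-3 differed by −1.18, H2A-2 by −1.77, the wcH2B-8 probe sets Ta.7378.17.S1_x_at and Ta.7378.35.S1_x_at by −1.76 and −1.16 and 4 probe sets of H2A-9 by −1.27, −2.05, −1.57 and −1.60. The adjusted p of these differences ran from 2.15e-08 for TaAffx.87253.3.S1_at to 0.0406 for rbcL.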

How the results depend on the processing

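The count of 2847 probe sets called in control anthers lay between 2363 and 3745 under the other settings with all arrays, and between 2180 and 2860 when 1 of the 4 arrays was left out, a fit that takes the lone array of a stage to vary like the others. Calls common to both fits ranged from 2057 upwards. With the paper's unadjusted threshold and 2-fold in both pairs, a setting chosen after seeing the data, 2430 were called. Without the photoperiod term, the block that pairs the arrays, 2674 were called, 2668 of them shared, and the counts of the steps from 1.5 mm to 2.0 mm and of the cold step were 0, that from 2.0 mm to 2.2 mm was 364 and the difference of control and cold steps was 2147. The count of the difference was 2021 to 3384 under the other settings and 2072 to 2567 when an array was left out. Centring each array on its median moved the median difference over all probe sets from 0.00264 to 0.107, and changes are to be read relative to it.

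The small counts moved more. From 1.5 mm to 2.0 mm, 0 were called with all 20 arrays in the fit, 5 without the filter, 7 without the variance trend and 7 with values raised to the 40th percentile. From 2.0 mm to 2.2 mm there were 813 with all 20 arrays and 232 without the filter. From 2.2 mm to 2.5 mm there were 9 with all 20 arrays, 1 without the filter and 0 to 122 when an array of 2.5 mm was left out. The cold step had 2 calls with quantile normalization and with centring on the median, 0 without the filter, 0 without the variance trend, 8 with raised values and 0 to 3 when an array was left out. The count outside all other arrays was 4066 at a margin of 0 and 544 at a margin of 2. The causes were not tested.

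Of 857 values of named probe sets under these settings, 810 kept direction and side of the threshold, 23 lost the call, 3 gained it (amy1 in the fit of 4 arrays, tubb1 and auxin response factor 16 without an array of 2.5 mm) and 21, none of them called in the full fit, changed sign. Without the photoperiod term or the filter, the call of wcH2B-8 (Ta.7378.1.S1_at) was lost (adjusted p = 0.0672 and 0.062). The values of changed sign were as follows. The fructan exohydrolase gene 1-FEHw2 was at 0.02 with quantile normalization and 0.05 with centring, and TEF1 was at 0.04 with centring. When each of the 4 arrays was left out in turn, the change ran from −0.29 to 0.18 for 1-FEHw2, from −0.20 to 0.84 for PRK, from −0.06 to 0.27 for eIF4E, from −0.57 to 0.12 for UBC1 (Ta.2711.1.S1_x_at) and from −0.23 to 0.64 for its probe set TaAffx.51048.1.S1_at. It ran from −0.03 to 1.54 for auxin response factor 5 (Ta.28513.1.S1_s_at), from −0.90 to 0.01 for factor 2, from −0.20 to 1.39 for factor 16 and from −0.13 to 0.20 for factor 17. For the auxin-repressed proteins it ran from −0.16 to 0.20 (Ta.28394.1.S1_a_at), from −0.35 to 0.11 (Ta.28394.1.S1_s_at) and from −0.33 to 0.45 (Ta.28394.3.S1_x_at). Arrays carry no counts, so their number limits the precision.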
